A study of Mus musculus with 13 samples.

Results

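The 10 genes described here encode adhesion molecules of the immunoglobulin superfamily: Cadm1, Cadm4, Sdk1, Sdk2, Chl1, Nrcam, Ncam1, Vcam1, Alcam and Ptprd. They were matched by symbol to the gene identifiers of the deposited count tables and make up 10 of the 55487 genes listed there. All 10 were found. They were selected on their measured levels in these libraries, so the levels by state within each genotype are given as a description, without a test. RNA-seq of poly-A RNA was available for 13 libraries of mouse embryonic fibroblasts (MEFs), cells grown from dissociated embryos, before (primary) and after (immortalized) spontaneous immortalization. Cells were kept in DMEM with 10% fetal calf serum under a modified 3T3 protocol. The serum was raised to 20% once the cultures had become senescent, and colonies that then grew out gave the immortalized lines. The study, which covers the WT cells, states that the lines were afterwards grown at 10% serum again. Wild-type (WT) cells gave 3 primary and 3 immortalized libraries, from clones 3, 4 and 5. Cells labelled Prkd3-/- gave 3 primary libraries, from clones 13, 14 and 15, and 4 immortalized libraries, named 13, 13a, 14 and 15. Each immortalized library is thus a single line, and lines 13 and 13a share a clone number. The labels give no age, sex or strain of the embryos. They do not say how the Prkd3 allele was made either.

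Adhesion molecules of this superfamily are membrane proteins with extracellular immunoglobulin domains, often followed by fibronectin type III repeats. They bind the same molecule or a relative on a neighbouring cell, and their cytoplasmic tails dock to the membrane skeleton or to signalling proteins. In the embryo they sort cells into tissues and guide growing axons. In fibroblasts some of them hold neighbouring cells together or offer a foothold to leukocytes.

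In WT cells, Sdk1, Cadm1, Ptprd, Chl1, Nrcam and Alcam were lower in each of the 3 immortalized lines than in any primary library. The same held for 17.3% of all tested genes. The fitted values ran from 517-fold for Sdk1 and 54.3-fold for Cadm1 to 3.62-fold for Alcam. With 3, 1 and 2 counts of Sdk1 in the WT lines, the size of its fold is not well set. Cadm4, Sdk2, Ncam1 and Vcam1 were higher in 1 or 2 WT lines and lower in the others. In Prkd3-/- cells Sdk1, Chl1, Nrcam and Alcam were lower in each of the 4 lines, whereas Cadm1 and Ptprd overlapped between states. For Nrcam line 13a was only just lower, at 4.93 CPM against 4.97 CPM in the primary culture of its clone. Of all tested genes 5.26% had every Prkd3-/- line below every primary library.

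The libraries held between 35273408 and 100441756 counts. At these depths 3 counts, used as the floor, correspond to between 0.0299 and 0.085 CPM (counts scaled to a common library size, here before TMM), and floors and counting intervals cover counting error only. The 3 WT primary libraries were nearly alike (r of log2 CPM from 0.995 to 0.996), whereas the 4 immortalized Prkd3-/- lines were not (0.774 to 0.912), and among the primary Prkd3-/- libraries number 14 stood apart (0.940 and 0.952 against 0.986 for the other pair). No 2 libraries of a group agreed within sampling noise. Prkd3 itself was still counted at 33.6 to 61.0 CPM in the libraries labelled Prkd3-/- against 69.2 to 93.8 CPM in WT, and counts per gene do not show a deleted exon. Summed fibroblast markers were between 14124.5 and 65349.2 CPM. All 10 macrophage markers were above the floor in each primary library and in 4 of the 7 lines, and their sum was 648.3 to 681.7 CPM in WT primary, 33.0 to 95.3 in WT immortalized, 87.3 to 1042 in Prkd3-/- primary and 10.3 to 174.4 CPM in Prkd3-/- immortalized libraries. In line 13, 7 macrophage markers, Ptprc among them, had no count. The summed Schwann cell markers were at 15.1 to 16.0 CPM in WT primary and 2.52 to 3.98 CPM in WT immortalized libraries, and at 4.64 to 14.4 and 1.51 to 13.95 CPM in the Prkd3-/- ones. The sum of 13.95 CPM, in line 14, was mostly S100b (11.4 CPM), while Sox10 and Foxd3 had no count. Mesothelial markers summed to 30.4 to 49.98 CPM in WT primary and 0.863 to 5.25 CPM in WT immortalized libraries. In the Prkd3-/- ones they summed to 8.39 to 20.6 CPM in primary and 1.345 to 47.52 CPM in immortalized libraries. The highest of these, in line 13, was nearly all Msln (47.5 CPM), while Wt1, Upk1b and Lrrn4 had no count. Neuronal markers summed to 16.0 to 187.8 CPM, endothelial ones to 11.1 to 102.2, skeletal muscle ones to 3.42 to 69.2 and epithelial ones to 0.830 to 130.3 CPM over the 13 libraries. The highest neuronal sum, in WT line 3, was nearly all Stmn2 (110.8 CPM), Map2 (48.5 CPM) and Tubb3 (28.1 CPM). Elavl3, Snap25, Dcx and Nefl had no count there. Flt1 (98.2 CPM) made up nearly all of the highest endothelial sum, in WT line 5, where Cldn5 had no count. The highest skeletal muscle sum, in Prkd3-/- primary library 14, was mostly Acta1 and Des. The highest epithelial sum, in line 13, was nearly all Krt19 (129.1 CPM), while Cdh1, Krt5, Cldn4 and Esrp1 had no count. The part of any of these cell types in the values below was not tested.

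Ordered by level per kilobase of exon, a scale on which genes of different length can be set side by side, the WT primary libraries placed Alcam highest, at 23.1 ± 0.669 CPM per kb (SD, n = 3). Vcam1 followed at 14.4 ± 0.0699 and Ncam1 at 13.5 ± 0.793 CPM per kb. Ptprd (3.58 ± 0.378) and Cadm1 (3.46 ± 0.381) had overlapping ranges, as did Sdk1 (1.58 ± 0.173) and Cadm4 (1.42 ± 0.226). At the low end lay Nrcam at 0.501 ± 0.00735 CPM per kb, then Chl1 (0.179 ± 0.0244) and Sdk2 (0.171 ± 0.0423), whose ranges overlapped. The 3 WT primary libraries were close to one another for every member, with a highest-to-lowest ratio between 1.01 for Vcam1 and 1.61 for Sdk2.

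**Figure D1:**
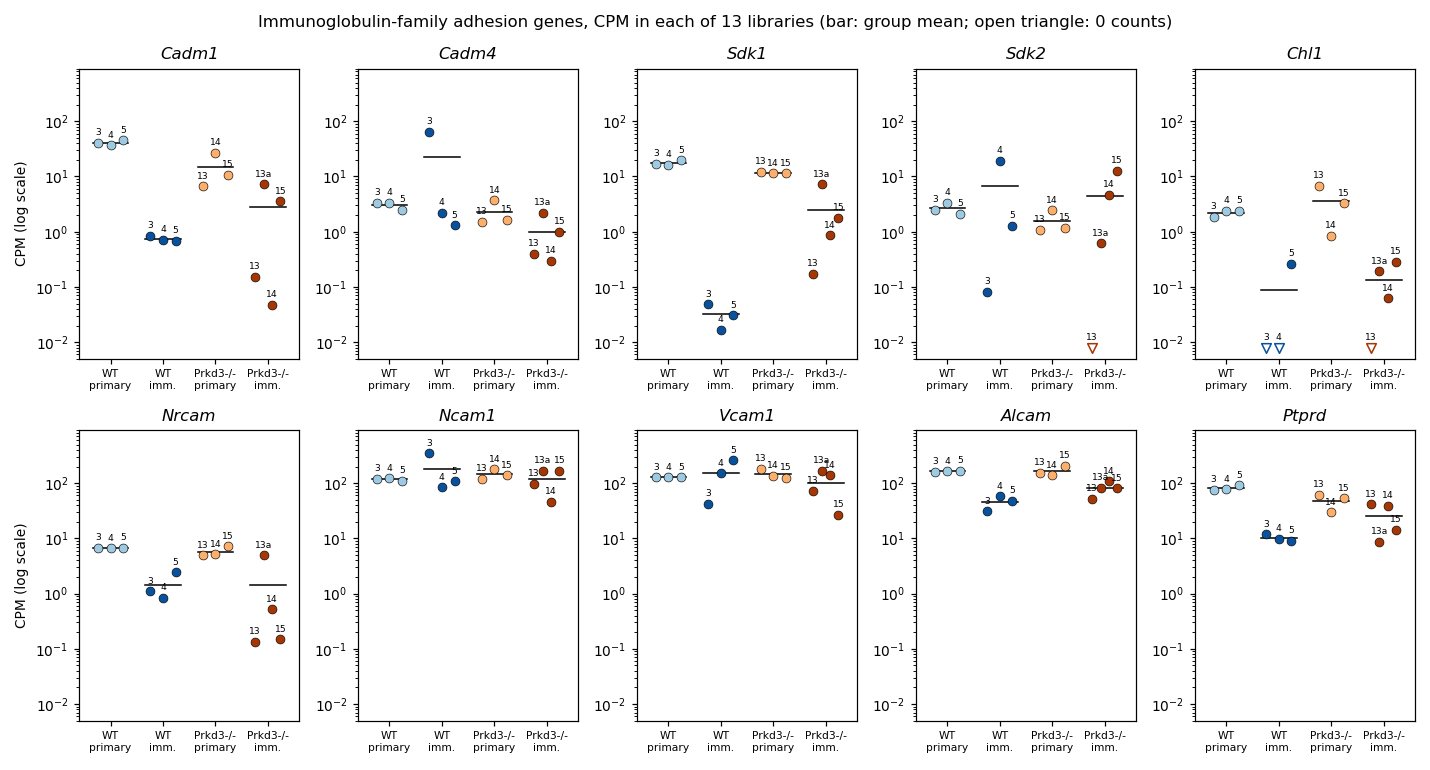
CPM (log axis) of the 10 adhesion genes in each of the 13 libraries, one panel per gene and one column per group, with the clone or line number above each point, a bar at the group mean and an open triangle where a library had 0 counts. Sdk1 and Cadm1 are lower in every WT line, whereas Cadm4, Sdk2, Ncam1 and Vcam1 lie on both sides of the primary level.

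Cadm1 and Cadm4 are nectin-like molecules that bind each other's kin across cell contacts and dock through their tails to band 4.1 and MAGUK proteins. Cadm1 (ENSMUSG00000032076, GRCm38 chr9:47530173-47858115, plus strand, 14 merged exon blocks) was at 40.4, 36.6 and 45.5 CPM in WT primary libraries 3, 4 and 5. The immortalized lines from these clones had 0.854, 0.711 and 0.688 CPM. All 3 lines were far below all primary libraries, and the Log2FC was -5.76 (SE 0.16). Whether fewer cells carried the transcript or each cell carried less of it cannot be told apart in RNA from whole cultures. In the Prkd3-/- cells Cadm1 was already uneven before immortalization, at 6.63, 26.7 and 10.8 CPM in primary libraries 13, 14 and 15. Lines 13, 13a, 14 and 15 had 0.153, 7.22, 0.0469 and 3.58 CPM. The groups overlapped, since line 13a lay at the level of the primary culture of its own clone, and the Log2FC was -2.42 (SE 1.41). Line 14 held 3 counts of Cadm1, and the primary culture of its clone was 569 times higher (95% counting interval 194 to 2760). Macrophage markers summed to 87.3, 1042 and 208 CPM in primary libraries 13, 14 and 15, in the same order as Cadm1, and to 17.8, 174.4, 10.3 and 16.2 CPM in lines 13, 13a, 14 and 15. Line 13a was highest in both, but line 15 had more Cadm1 than line 13 at a slightly lower marker sum, and of the WT lines 3, 4 and 5 (42.9, 33.0 and 95.3 CPM for the sum) line 5 had the highest sum and the lowest Cadm1. The part of macrophages in the Cadm1 values was not tested.

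Cadm4 (ENSMUSG00000054793, chr7:24482023-24504539, plus strand, 9 exon blocks) behaved differently from its relative. WT primary libraries had 3.34, 3.35 and 2.50 CPM, and lines 3, 4 and 5 had 65.0, 2.20 and 1.30 CPM. Line 3 alone was higher, 19.4 times over its own primary culture, while lines 4 and 5 were below the range of the primary libraries. The fitted Log2FC of 2.89 (SE 1.52) rests on that line, and without it the value was -0.81. Prkd3-/- primary libraries had 1.51, 3.69 and 1.63 CPM and lines 13, 13a, 14 and 15 had 0.401, 2.18, 0.297 and 0.999 CPM. Of these lines, 13a fell within the range of the primary libraries and the other 3 were below it (Log2FC -1.24, SE 0.74). The bases just before the annotated start of Cadm4 are shown because WT line 3 stood above all other libraries in this gene, with matches to the GC box GGGCGG (either strand) in capitals, 4 in all.
Cadm4 (chr7:24481773-24482022, plus strand): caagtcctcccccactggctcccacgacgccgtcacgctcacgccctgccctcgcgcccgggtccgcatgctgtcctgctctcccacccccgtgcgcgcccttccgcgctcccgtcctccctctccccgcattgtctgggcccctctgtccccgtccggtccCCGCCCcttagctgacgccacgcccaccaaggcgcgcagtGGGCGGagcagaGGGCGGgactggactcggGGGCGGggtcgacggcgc

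Sdk1 and Sdk2, the sidekicks, are large homophilic molecules best known for matching synaptic partners in the retina. Sdk1 (ENSMUSG00000039683, chr5:141241490-142215586, plus strand, 47 exon blocks) was at 16.8, 16.1 and 19.7 CPM in the WT primary libraries. It was almost absent from the WT lines, with 3, 1 and 2 counts in lines 3, 4 and 5 (0.0483, 0.0169 and 0.0306 CPM). The primary cultures were 349 (95% counting interval 119 to 1693), 951 (170 to 37603) and 644 times (178 to 5325) higher than their lines, and the fitted Log2FC was -9.01 (SE 0.31). All 3 lines were thus at or below the floor, with 6 counts summed over them, so the size of the fitted fold is not well set. In the Prkd3-/- cells Sdk1 was even among primary libraries, at 12.2, 11.5 and 11.4 CPM. Lines 13, 13a, 14 and 15 had 0.172, 7.21, 0.860 and 1.80 CPM, each below each primary library (Log2FC -2.22, SE 1.01). The lines themselves differed 42.0 times between the lowest, 13, and the highest, 13a.

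Sdk2 (ENSMUSG00000041592, chr11:113776374-114067046, minus strand, 47 exon blocks) was low in primary cells and scattered widely in the lines. WT primary libraries had 2.47, 3.36 and 2.09 CPM, and lines 3, 4 and 5 had 0.0806, 19.1 and 1.29 CPM. Line 4 was 5.66 times above its primary culture and line 3 was 30.6 times below its own. The Log2FC was 1.36 (SE 1.54) with line 4 and -1.95 without it. Among Prkd3-/- cells the primary libraries had 1.10, 2.42 and 1.18 CPM and lines 13, 13a, 14 and 15 had 0, 0.617, 4.71 and 12.6 CPM. Lines 14 and 15 were above the range of the primary libraries, and lines 13 and 13a were below it. Line 13 had no count, at least 19.1 times lower than the primary culture of its clone, and the Log2FC of the group was 1.51 (SE 1.58). The order of lines was not that of Sdk1, for which 13a was highest. The bases before the start of both sidekick genes are shown, up to the first annotated exon, because these relatives ordered the lines differently. Capitals mark GGGCGG, of which Sdk1 has 3 matches and Sdk2 has 1, and in Sdk2 also 1 match to GGGNNNNCC, where N is any base.
Sdk1 (chr5:141241284-141241489, plus strand): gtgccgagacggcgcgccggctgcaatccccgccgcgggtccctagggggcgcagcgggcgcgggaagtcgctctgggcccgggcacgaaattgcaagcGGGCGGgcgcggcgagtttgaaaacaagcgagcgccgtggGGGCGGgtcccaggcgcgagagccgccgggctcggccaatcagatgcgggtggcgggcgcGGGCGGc
Sdk2 (chr11:114067047-114067279, minus strand): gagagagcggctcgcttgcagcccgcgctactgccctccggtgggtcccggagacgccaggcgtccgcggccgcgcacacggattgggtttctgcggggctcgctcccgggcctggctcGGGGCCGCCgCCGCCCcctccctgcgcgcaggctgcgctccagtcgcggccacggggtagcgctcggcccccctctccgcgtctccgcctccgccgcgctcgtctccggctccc

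Chl1 and Nrcam belong to the L1 family, which steers axons and links the cell surface to ankyrin and spectrin. Chl1 (ENSMUSG00000030077, chr6:103510586-103750211, plus strand, 32 exon blocks) had 1.86, 2.37 and 2.38 CPM in the WT primary libraries. Lines 3 and 4 had no count and line 5 had 0.260 CPM. The primary cultures of clones 3 and 4 were at least 38.4 and 46.7 times higher than their lines, taken against the floor per library, and that of clone 5 was 9.15 times higher. All lines were below all primary libraries, with a fitted Log2FC of -4.61 (SE 1.28). Without line 5 every WT line is at 0 and the fitted value (-10.20) depends on the prior count, so the bounds given for lines 3 and 4 stand in its place. Prkd3-/- primary libraries 13, 14 and 15 had 6.82, 0.851 and 3.28 CPM, with 14 the lowest. Lines 13, 13a, 14 and 15 had 0, 0.192, 0.0626 and 0.283 CPM, again below each primary library (Log2FC -4.72, SE 1.16). Line 13 was at least 119 times below its primary culture, and the other lines were 11.6 to 35.6 times below theirs.

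Nrcam (ENSMUSG00000020598, chr12:44328885-44601964, plus strand, 38 exon blocks) was at 6.70, 6.60 and 6.79 CPM in WT primary libraries and at 1.10, 0.830 and 2.42 CPM in lines 3, 4 and 5. Every WT line was lower, by 2.81 to 7.95 times against its own primary culture. The Log2FC was -2.21 (SE 0.42), and -2.79 without line 5. Prkd3-/- primary libraries had 4.97, 5.18 and 7.18 CPM, and lines 13, 13a, 14 and 15 had 0.134, 4.93, 0.516 and 0.148 CPM. Line 13a was 1.01 times below its primary culture, close to no difference, while line 15 was 48.4 and line 13 was 37.2 times below theirs. The groups did not overlap, but only just, and the Log2FC of -2.01 (SE 1.22) was -4.44 without line 13a. The window before the start of Nrcam is shown as the L1 gene that was lower in 3 of 4 Prkd3-/- lines while 13a lay near its primary culture. It has 1 match to GGGCGG, in capitals.
Nrcam (chr12:44328635-44328884, plus strand): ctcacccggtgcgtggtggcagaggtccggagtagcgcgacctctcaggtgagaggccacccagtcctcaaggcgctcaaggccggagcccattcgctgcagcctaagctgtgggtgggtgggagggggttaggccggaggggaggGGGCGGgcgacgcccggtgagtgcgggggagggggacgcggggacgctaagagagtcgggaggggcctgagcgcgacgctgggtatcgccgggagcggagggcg

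Ncam1, the neural cell adhesion molecule, carries polysialic acid in the embryo and signals through FGF receptors. Ncam1 (ENSMUSG00000039542, chr9:49502136-49798925, minus strand, 26 exon blocks) was abundant in all libraries. WT primary libraries had 120.2, 122.2 and 109.4 CPM, and lines 3, 4 and 5 had 348.7, 83.6 and 107.3 CPM. Line 3 was 2.90 times above its primary culture and lines 4 and 5 were below the primary range, so the Log2FC of 0.61 (SE 0.55) became -0.30 without line 3. Prkd3-/- primary libraries had 118.3, 177.2 and 138.6 CPM and lines 13, 13a, 14 and 15 had 98.3, 166.7, 45.5 and 166.8 CPM. Line 14 was 3.89 times below its primary culture, and lines 13a and 15 lay inside the primary range (Log2FC -0.29, SE 0.44). Line 3 was thus the highest of all 13 libraries for both Cadm4 and Ncam1.

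Vcam1 and Alcam bind partners on leukocytes: Vcam1 is the ligand of the integrin made of Itga4 and Itgb1, and Alcam binds Cd6 or itself. Vcam1 (ENSMUSG00000027962, chr3:116109949-116129688, minus strand, 10 exon blocks) was at 127.3, 127.0 and 128.2 CPM in WT primary libraries. Lines 3, 4 and 5 had 42.4, 151.1 and 258.8 CPM. Line 3 was 3.00 times below its primary culture, line 5 was 2.02 times above its own, and the Log2FC was 0.24 (SE 0.59). Leaving out line 5 gave a Log2FC of -0.39, and leaving out line 3 gave 0.69. In Prkd3-/- cells primary libraries had 179.5, 136.0 and 123.5 CPM and lines 13, 13a, 14 and 15 had 71.9, 165.3, 139.2 and 26.4 CPM. Lines 13a and 14 lay within the primary range and lines 13 and 15 were below it (Log2FC -0.54, SE 0.56).

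Alcam (ENSMUSG00000022636, chr16:52248996-52454074, minus strand, 16 exon blocks) was lower in each of the 7 lines than in any primary library of the same genotype. WT primary libraries had 159.8, 164.8 and 169.3 CPM and lines 3, 4 and 5 had 30.8, 57.6 and 48.2 CPM. The lines were 2.86 to 5.19 times below their primary cultures, with no overlap (Log2FC -1.86, SE 0.24). In Prkd3-/- cells primary libraries had 155.8, 138.1 and 205.8 CPM and lines 13, 13a, 14 and 15 had 52.0, 81.7, 107.7 and 80.4 CPM. These lines too were all below all primary libraries, by 1.28 to 2.99 times against their own (Log2FC -1.06, SE 0.28).

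Ptprd is a receptor tyrosine phosphatase whose immunoglobulin and fibronectin domains bind Slitrk and Il1rapl1 proteins at synapses. Ptprd (ENSMUSG00000028399, chr4:75941238-78211961, minus strand, 52 exon blocks) was at 76.1, 77.5 and 91.7 CPM in WT primary libraries and at 11.8, 9.80 and 8.98 CPM in lines 3, 4 and 5. The WT lines resembled one another and were 6.45 to 10.2 times below their primary cultures (Log2FC -3.00, SE 0.15). Prkd3-/- primary libraries 13, 14 and 15 had 61.9, 29.5 and 52.8 CPM, with 14 the lowest. Lines 13, 13a, 14 and 15 had 41.3, 8.58, 39.2 and 14.3 CPM. Lines 13 and 14 lay within the primary range and lines 13a and 15 were below it, so that the groups overlapped (Log2FC -0.91, SE 0.57).

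**Figure D2:**
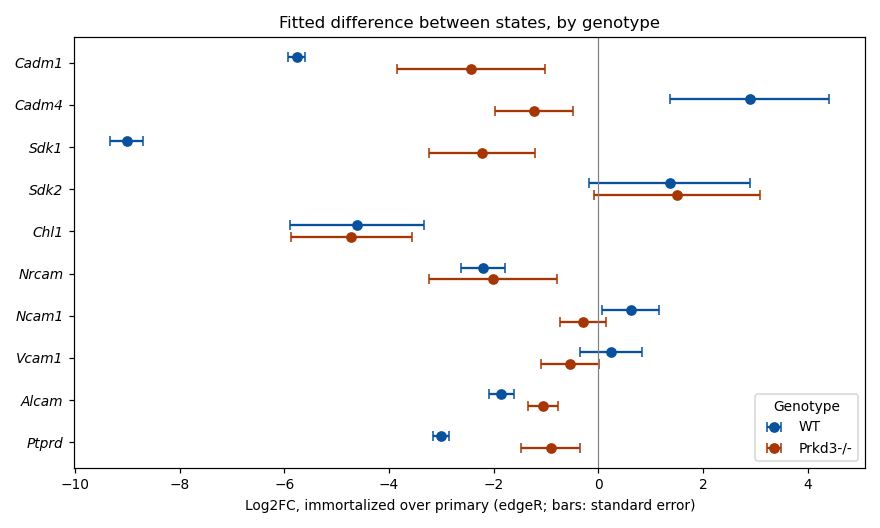
Log2FC of immortalized over primary libraries for the 10 adhesion genes (x axis, log2 units), with standard errors as bars, in WT and in Prkd3-/- cells. Sdk1 has -9.01 in WT and -2.22 in Prkd3-/- cells, and the bars of Cadm4, Sdk2 and Chl1 are wide in WT.

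Set against all genes, 3 of the 10 members (Cadm1, Sdk1 and Ptprd) were past the call rule on the lower side in WT. The rule asks for an adjusted p-value (edgeR, quasi-likelihood) under 0.01 and a |Log2FC| of at least 1. Of all 19836 tested genes 1.76% were called lower and 0.0605% higher, and no member was past the rule on the higher side. With the embryo as a block 0 members were past it, since no gene at all was called in that fit, and DESeq2 put 5 past it, Alcam and Nrcam in addition, where it called 3.67% of 33613 genes lower. In the Prkd3-/- cells 0 members were past it, where the percentage of all 20298 tested genes was 0 on the lower and 0 on the higher side, and 2 members had an unadjusted p under 0.05 beside 6.56% of all genes. DESeq2 called 1 member, Chl1, and 0.469% of 34743 genes lower. All 10 members passed the filter on low counts in both genotypes. Because the members were chosen on these contrasts, nothing is read from the counts.

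Without a test, 6 members had every WT line below every WT primary library (Cadm1, Sdk1, Chl1, Nrcam, Alcam and Ptprd), and 17.3% of all tested genes did so, while 14% had every line above. In Prkd3-/- cells 4 members (Sdk1, Chl1, Nrcam and Alcam) had every line below, against 5.26% of all genes, with 4.19% above. No member had every line above in either genotype. The rule used these levels, so the counts are again a description. The median Log2FC over the members was -2.03 in WT and -1.15 in Prkd3-/- cells, beside 0.04 and 0.07 over all tested genes.

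The difference between genotypes in the state change was 6.80 on the log2 scale for Sdk1 (SE 1.45), 3.35 for Cadm1 (SE 1.68), 2.11 for Ptprd (SE 0.70) and 0.81 for Alcam (SE 0.38), each a less negative fitted value in Prkd3-/- than in WT cells. For Cadm1 the lines were split, with lines 13 and 14 at -5.31 and -8.76 against their primary cultures on the log2 scale, beside -5.54 to -6.02 in the WT lines, and lines 13a and 15 at 0.12 and -1.59. For Cadm4 it was -4.12 (SE 1.67), and -0.44 without WT line 3. For Chl1 (-0.10, SE 1.99), Nrcam (0.20, SE 1.47), Sdk2 (0.15, SE 2.30) and Vcam1 (-0.78, SE 0.87) the standard error exceeded the difference. For Ncam1 the difference was -0.89 (SE 0.74). None of the 21197 genes of that fit was called in either direction (0% lower and 0% higher at an adjusted p-value under 0.05). Line 13a carried part of the Sdk1 value, which was 5.39 without it. With 6 counts of Sdk1 summed over the WT lines, the size of its difference is not well set. Each genotype came in its own table, so genotype and table cannot be told apart in these differences.

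Line by line, between 8 and 9 members were below the range of all primary libraries of the genotype in each WT line. Of all tested genes 42.2% to 43.1% lay below that range in these lines and 40.3% to 41.3% lay above it. For lines 13, 14 and 15 of Prkd3-/- it was 9, 7 and 8 members, beside 40%, 36.5% and 33.8% of all genes. Line 13a had 6 below and 4 within the range, beside 28.7% of all genes below, and it was the line with the highest Cadm1, Cadm4, Sdk1, Nrcam and Vcam1 among the 4. Each of WT lines 3 and 4 had 2 members above the range and line 5 had 1. These were Cadm4 and Ncam1 in line 3, Sdk2 and Vcam1 in line 4, and Vcam1 in line 5. For the Prkd3-/- lines 14 and 15 the member above the range was Sdk2. Lines 13 and 13a, which share a clone number, were the lowest and the highest of the 4 in Sdk1 and in Nrcam.

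**Figure D3:**
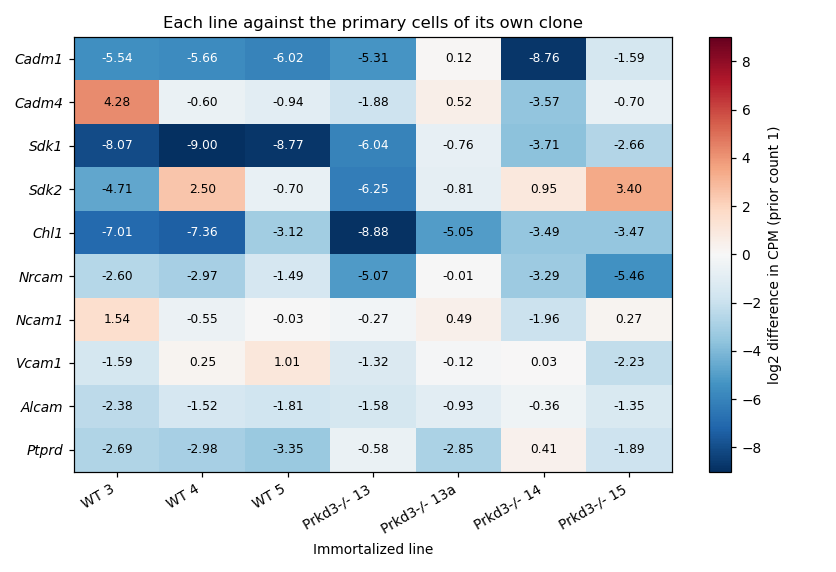
The log2 difference in CPM (prior count 1) between each of the 7 immortalized lines (columns) and the primary culture of its clone, for the 10 adhesion genes (rows), blue where the line is lower and red where it is higher. Line 13a is pale in most rows, with values from 0.52 for Cadm4 to -5.05 for Chl1, and red cells are few, the largest being 4.28 for Cadm4 in WT line 3.

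Prkd3-/- and WT cells were compared within each state, a contrast that the choice of members did not use, although it reads the same libraries. The genotypes come in separate tables, and how the Prkd3-/- table was counted is not stated, so genotype and table cannot be told apart. Among primary cells 0 of 10 members were called in edgeR's quasi-likelihood test, where 0.534% of 20403 genes were called lower and 0.23% higher in Prkd3-/- cells, and DESeq2 called 0 as well. An unadjusted p under 0.05 was reached by 3 members, Sdk1, Cadm1 and Ptprd, and by 24.1% of all genes. Sdk1 was lower in Prkd3-/- than in WT primary cells, by 0.56 on the log2 scale (SE 0.10, edgeR adjusted p = 0.0348). The Log2FC of Cadm1 was -1.44 (SE 0.50, adjusted p = 0.148 in edgeR). Ptprd had a Log2FC of -0.75 (SE 0.27, adjusted p = 0.155 in edgeR). Without primary library 14, which stood apart, 2 members were called, Cadm1 at -2.25 and Sdk2 at -1.23, where 5.55% of all genes were called lower and 1.58% higher.

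In the immortalized lines 0 of 10 members were called between genotypes in edgeR, where 0.0356% of 19683 genes were called lower and 0.00508% higher, and 4 members had an unadjusted p under 0.05, as did 6.88% of all genes. Sdk1 had a fitted Log2FC of 6.22 (SE 1.46, edgeR adjusted p = 0.43), and DESeq2 called it at 6.27, with 0.296% of 34432 genes called lower and 0.229% higher. With all WT lines at or below the floor, the size of that fold is not well set. Cadm4 had a Log2FC of -4.54 (SE 1.48, edgeR adjusted p = 0.67), which rests on WT line 3 and was -0.85 without it. For Ptprd it was 1.34 (SE 0.57, adjusted p = 0.725 in edgeR) and for Alcam 0.83 (SE 0.32, adjusted p = 0.714 in edgeR). The other 6 members had adjusted p-values between 0.793 and 0.999.

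For each member the gene with the most similar log2 CPM over the 13 libraries, out of 21196 others, is given as a description, since libraries of one state and genotype share much of their expression. Cadm1 was most like Pcsk1, a prohormone convertase (Pearson r = 0.973). Sdk1 paired with the sialyltransferase gene St6galnac3 (0.973), Chl1 with the protocadherin gene Pcdh10 (0.977), Alcam with Kctd8 (0.972), Nrcam with 4933439K11Rik (0.978) and Ptprd with Tnfaip8l3 (0.925). Cadm4 was most like the dystrophin gene Dmd (0.906) and Sdk2 most like Gm13446 (0.962). For Ncam1 and Vcam1 the most similar genes, Gm11149 (0.996) and Gm43109 (0.991), lie on the opposite strand and share 4.81% and 0.688% of the exon bases. In the WT table the counting used no strand and assigned a pair lying on both genes to each of them, so their values share reads there, and for the Prkd3-/- table these options are not stated. Among the members themselves Sdk1 and Alcam were the most alike (r = 0.90) and Ncam1 and Vcam1 the least (r = -0.47).

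Genes within 5 Mb of each member were taken as its neighbours. The median log2 ratio of those neighbours, 13 to 162 genes per member, lay between -0.59 and 0.34 over the 7 lines. The members' own ratios ran from -9.14 for Sdk1 in WT line 4 to 4.38 for Cadm4 in WT line 3. The lowest neighbour median, -0.59, was that of Cadm4 in line 14, where the whole of chromosome 7 was at -0.63 and Cadm4 itself at -2.73. Chromosome medians of similar size occurred in line 15, at -0.64 for chromosome 4, -0.54 for chromosome 16 and 0.56 for chromosome 6. There Ptprd, Alcam and Chl1, which lie on these chromosomes, were at -1.70, -1.04 and -3.19. The part of such shifts in the members' values was not tested.

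**Figure D4:**
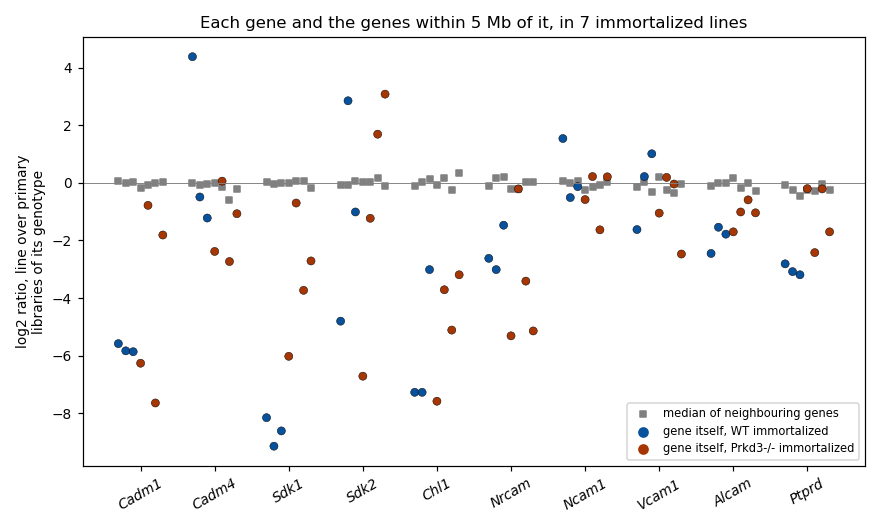
The log2 ratio of each of the 7 immortalized lines to the primary libraries of its genotype (y axis), for each adhesion gene (circles, by genotype) and for the median of the genes within 5 Mb of it (grey squares). The squares stay between -0.59 and 0.34 while the circles spread from -9.14 to 4.38.

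The remaining adhesion genes of the superfamily form a list of 66 by family membership, which was written with earlier results of these data known. In WT cells 56 were tested, 36 with a negative and 20 with a positive Log2FC, and the median was -0.13. One was called, Hmcn1, a large extracellular protein of basement membrane junctions. It was at 229.2 ± 39.6 CPM (SD, n = 3) in primary and 1.20 ± 0.852 CPM in immortalized WT libraries, with a Log2FC of -7.57 (SE 0.63, edgeR adjusted p = 0.00311). The unadjusted p was under 0.05 for 22 of the 56 against 19.7% of all genes, DESeq2 called 13, all lower, and with the embryo as a block or in limma 0 were called. The call of Hmcn1 was also lost without any 1 of the 3 WT primary libraries.

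The closest relatives of the members, named here after their values were seen, did not pass the rule in edgeR in WT, although DESeq2 called Cadm3, Ncam2 and L1cam. The Log2FC was -4.11 (SE 0.73, edgeR adjusted p = 0.0349) for Cadm3, -2.97 (SE 1.35, edgeR adjusted p = 0.304) for Cadm2, and -3.23 (SE 1.00, edgeR adjusted p = 0.155) for Ncam2. For the L1 family genes L1cam and Nfasc it was -1.47 (SE 0.31) and -2.91 (SE 0.97), with adjusted p-values of 0.059 and 0.177 in edgeR. The phosphatases nearest to Ptprd had -0.38 (SE 0.27) for Ptprf and 0.32 (SE 0.13) for Ptprs, with adjusted p-values of 0.501 and 0.25 in edgeR. Nectin1, Nectin2, Nectin3 and Pvr, which bind one another across cell junctions, had values from -0.24 to 0.26, with adjusted p-values from 0.288 to 0.77 in edgeR.

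In Prkd3-/- cells 52 of the 66 were tested and 0 were called by edgeR, with 31 negative and 21 positive values, 12 with an unadjusted p under 0.05 (6.56% of all genes) and 0 called by DESeq2. None of 58 tested differed in its state change between genotypes by edgeR, where 5 had an unadjusted p under 0.05 (3.97% of all genes) and DESeq2 called 1, Icam2. Between primary cells of the 2 genotypes, where 57 were tested, edgeR called 1 gene, L1cam, and DESeq2 called 7, 4 lower and 3 higher. L1cam was lower in Prkd3-/- cells at 4.91 ± 0.361 against 21.9 ± 3.10 CPM (SD, n = 3 each), with a Log2FC of -2.13 (SE 0.13, edgeR adjusted p = 0.00117). Its call was lost with all 13 libraries in 1 fit, with limma, and without WT primary library 3 or 4.

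**Figure D5:**
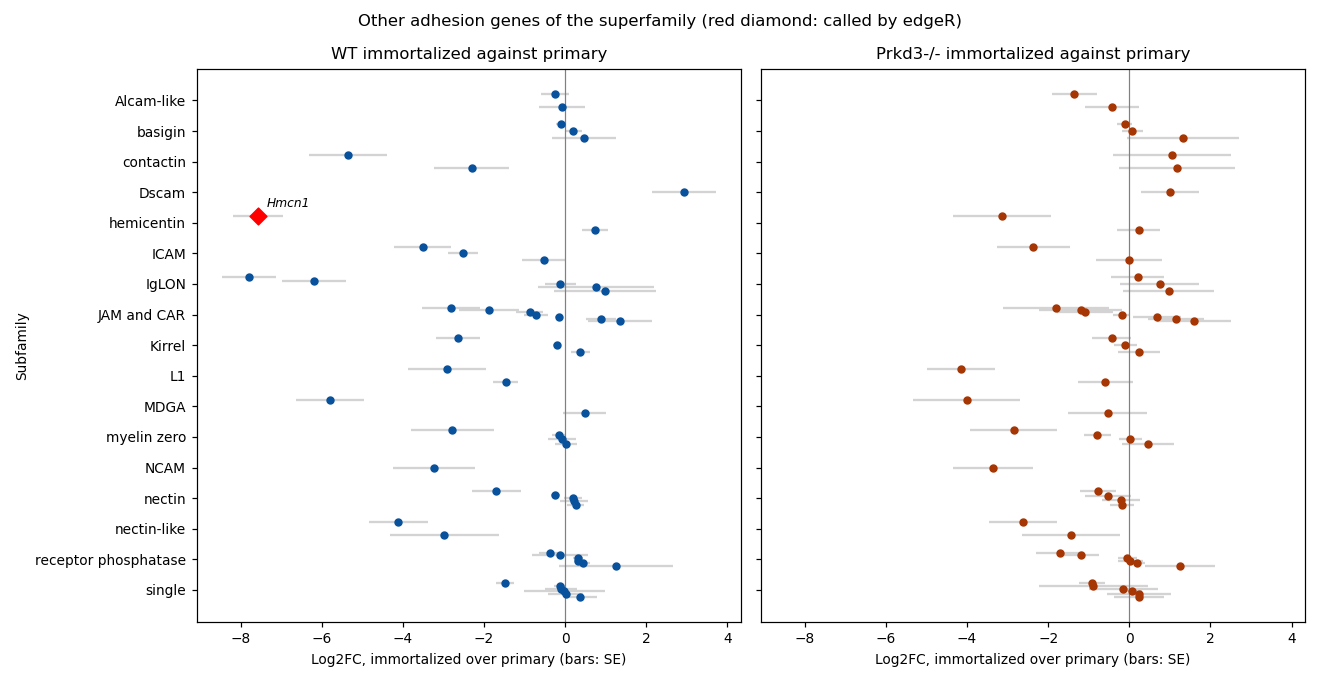
Log2FC (x axis) with standard errors for the other adhesion genes of the superfamily, by subfamily, in WT (left) and Prkd3-/- cells (right). The red diamond is Hmcn1 at -7.57 in WT, the gene called by edgeR, and most other points lie near 0 or have wide bars on the negative side.

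Of 58 genes for ligands, cytoplasmic partners, modifying enzymes and inducers of the members, 50 were tested in WT, and 3 were called, all lower. They were St8sia4, which adds polysialic acid to Ncam1, Ppfia4, a liprin that binds phosphatases of the Ptprd kind, and Epb41, the band 4.1 protein that docks nectin-like tails. St8sia4 had 11.5 ± 0.394 CPM in primary and 0.186 ± 0.114 CPM in immortalized WT libraries (SD, n = 3 each), a Log2FC of -5.94 (SE 0.49, edgeR adjusted p = 0.0029). Ppfia4 went from 3.78 ± 0.246 to 0.459 ± 0.0609 CPM, with a Log2FC of -3.04 (SE 0.20, edgeR adjusted p = 0.00136). Epb41 went from 43.2 ± 0.711 to 19.5 ± 3.09 CPM, with a Log2FC of -1.15 (SE 0.13, edgeR adjusted p = 0.00797). With the embryo as a block 0 partners were called, and each of the 3 calls was lost without any 1 of the 3 WT primary libraries. The median over the 50 was 0.03, beside 0.04 over all tested genes.

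Partners of Vcam1 differed among themselves in WT, with a Log2FC of -4.20 (SE 0.53, edgeR adjusted p = 0.0115) for the integrin gene Itga4 and 0.04 (edgeR adjusted p = 0.955) for Itgb1. Itga4, named here after its value was seen, is also carried by leukocytes. Of the genes that induce Vcam1, Rela and Nfkb1 had 0.13 and 0.08, with adjusted p-values of 0.427 and 0.617 in edgeR. Both were named after their values were seen. DESeq2 called 9 partner genes in WT, all lower: Epb41, Itga4, Ppfia2, Ppfia4, Slitrk1, Slitrk2, Slitrk4, St8sia4 and Tnf. Tnf is another inducer of Vcam1. In that DESeq2 fit 3.67% of all genes were called lower. In Prkd3-/- cells 0 of 51 tested partners were called by edgeR, 8 had an unadjusted p under 0.05 (6.56% of all genes), and DESeq2 called 1, Itga4.

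RefSeq promoter windows (250 bases before to 50 after the start, GRCm38.p6) were at hand for 6 of the 10 members. None of the 6 held TATAAA on either strand, against 13.6% of all 32851 windows with a match. GGGCGG was found in 5 of the 6, all but Chl1, against 35.7% of windows. GGGNNNNCC was found in Sdk2, Chl1 and Alcam, against 43.8% of windows, and it can overlap GGGCGG. The windows of Sdk1, Sdk2, Cadm4, Nrcam, Alcam and Chl1 held 54, 41, 40, 37, 25 and 13 CpG dinucleotides, where the median window held 7. For Chl1 and Alcam the 250 bases before the RefSeq start all lay within annotated exons. These matches describe the letters only.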

How the data were processed

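Poly-A RNA was read in pairs and counted per gene, and the authors deposited 2 tables of raw counts without normalization, 1 per genotype. For WT, per the file headers and the study's methods, pairs were mapped to mm10 with STAR 2.7.10a, handled with SAMtools 1.18 and counted with featureCounts of Subread 2.0.6 on Ensembl GRCm38 genes, without strand and with each pair given to every gene it overlapped. The options behind the Prkd3-/- table are not given in the sources used here. Mitochondrial genes had 0 counts.

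CPM were scaled by TMM over all 13 libraries. Contrasts were fitted with edgeR 4.0.16 in R 4.3.3 (quasi-likelihood, robust, filterByExpr), each on the groups compared and the interaction on all libraries, with Benjamini-Hochberg adjustment over all genes tested. SE, also drawn as bars in the figures, is the size of the Log2FC divided by the square root of the quasi-likelihood F statistic. It is thus an approximate standard error. Alternatives used DESeq2 1.42.0, limma 3.58.1, other scalings and filters, a block and left-out libraries. Counting intervals are exact binomial ones at 95%. The fits were tested on simulated data. WT libraries of 1 clone number come from the same embryo per the study, although their deviations from the group means correlated only between -0.04 and 0.02. Prkd3-/- libraries share a clone number in the labels (correlations from -0.28 to 0.14). The members and lists were chosen with earlier results of these data known. Named genes are the members, genes of the lists that were called, and for each member the gene with the highest correlation. Close relatives and some partners of the members that were not called are named in addition, and were chosen after their values were seen. Coordinates are from GENCODE on GRCm38, promoter windows from RefSeq on GRCm38.p6. Whether libraries of a group are separate embryos rests on the clone numbers, and for lines of 1 clone the p-values measure the spread between these samples.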

Additional observations from a re-analysis of the deposited data

Results flagged for a closer look

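Among the 4 immortalized Prkd3-/- lines Nrcam was at 4.93 CPM in line 13a and between 0.134 and 0.516 CPM in the other 3, so that the gap below line 13a took up 0.92 of the whole range. This distance from the other lines is why the value was singled out, and with 4 normally distributed values chance alone does so in about 1 of 20 groups. The rule was applied to the unlogged CPM of all 10 members, so a flag somewhere among them is more likely than that. Line 13a was also the highest of the 4 lines in Cadm1, Cadm4, Sdk1 and Vcam1, and in summed macrophage markers at 174.4 CPM. Line 14, however, had the lowest marker sum (10.3 CPM) and more Nrcam than lines 13 and 15, and primary library 14, with the highest sum (1042 CPM), had less Nrcam (5.18 CPM) than primary library 15 (7.18 CPM at a sum of 208 CPM). The part of macrophages in the Nrcam value was not tested.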

How the results depend on the processing

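The number of members past the call rule in WT (3) was 5 with DESeq2, 5 at an adjusted p-value under 0.05, 0 with all 13 libraries in 1 fit, 0 with the embryo as a replicate block, and 3 to 5 with 1 library left out, the 5 being without WT immortalized line 5. For other adhesion genes in WT (1) it was 13 with DESeq2, 9 at an adjusted p-value under 0.05, 5 with no filter on low counts, 0 with all 13 libraries in 1 fit, 0 with the embryo block, 0 with limma and weights per group, and 0 to 4 with 1 library left out (4 without WT line 3 or line 5, 2 without line 4, 0 without any 1 of the WT primary libraries). For partner genes in WT (3) it was 9 with DESeq2, 5 at an adjusted p-value under 0.05, 1 with at least 10 counts in every library, 0 with all 13 libraries in 1 fit, 0 with the embryo block and 0 to 8 with 1 library left out (8 without WT line 5, 0 without any 1 of the WT primary libraries). DESeq2 called 1 where edgeR called 0 for members and for partner genes in Prkd3-/- cells, for members between genotypes in the immortalized lines, and for other adhesion genes in the difference between genotypes. Members called between genotypes in primary cells numbered 0 to 2 with 1 library left out, 2 without Prkd3-/- primary 14. With the shared clone number as a block no call changed in Prkd3-/- cells, with 0 made with and without it. Directions between genotypes changed with 1 library left out, in primary cells for Alcam (-0.16 to 0.15, negative without Prkd3-/- primary 15) and Chl1 (-0.11 to 1.24, negative without Prkd3-/- primary 13). In the lines they changed for Ncam1 (-0.93 to 0.31, positive without WT line 3), Sdk2 (-1.93 to 2.71, positive without WT line 4), Vcam1 (-1.02 to 0.05, positive without WT line 5) and Nrcam (-2.43 to 0.56, and 0.13 with library size alone). Where not shown by the number of libraries or genes in the fit, the cause was not tested. Of 837 Log2FC values of single genes under alternatives 779 kept their direction and their side of the threshold or stayed within the spread. Genes with fewer than 3 counts in a line are limited by depth, so their fold changes are bounds or wide intervals.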
